A study of Mus musculus with 30 samples.

Results

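The transcripts described here are 10 marker genes of the brain's small blood vessels, 8 of endothelial cells (Cldn5, Pecam1, Flt1, Cdh5, Tek, Kdr, Slco1a4 and Abcb1a) and 2 of pericytes (Pdgfrb and Rgs5). They were taken by symbol from a table of 23993 genes in 24 libraries, and all 10 were present. The table gives FPKM, the number of fragments scaled by transcript length and by the mapped fragments of the library, so levels are per length and can be compared between genes. All 10 genes had a mean above 0.4 FPKM in each comparison and were tested in each of them.

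The study sorted tdTomato-labelled interneurons from the medial prefrontal cortex of C57BL/6 mice by FACS and sequenced their RNA. The reporter mice carried Cre under the control of the Sst or the Pvalb gene together with a Cre-dependent tdTomato allele, so the labelled cells are all those in which Cre was ever active, and all groups carried the reporter. Nonstressed mice gave 7 libraries labelled Sst female, 7 labelled Sst male and 7 labelled Pvalb male, and 3 libraries came from Sst males after 14 days of chronic unpredictable stress (CUS). The labels do not say whether libraries of a group came from separate animals, so p-values measure the spread between these samples. The sort was for interneurons, and vascular transcripts in these libraries are therefore outside the cell type that the labels name.

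Endothelial cells line the vessels of the cortex and are sealed by tight junctions and equipped with transporters and efflux pumps, which together make up the blood-brain barrier. They respond to vascular endothelial growth factors and angiopoietins through receptor tyrosine kinases. Pericytes share their basement membrane and need signalling by platelet-derived growth factor through PDGFRβ to be recruited to the vessel wall. In bulk libraries such as these, fewer cells of a type and less RNA per cell cannot be told apart.

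Several libraries stood apart before any comparison was made. PV0-M and PV2-M were nearly identical, with an SD of their log2 ratio over genes of 0.0170, where the next closest pair of the group had 0.225. SST0-M and SST1-M were likewise close (0.0212, against 0.267). Each pair was averaged and counted as 1 sample, which left 22 samples. The male Sst titles are of 2 kinds, 3 numbered samples and 3 with longer, date-like numbers, here called dated, and all CUS libraries are dated. Genes of small RNA took 61.1% to 79.2% of total FPKM in the dated libraries and 7.54% to 16.1% in all others. Xist, which is transcribed from the inactive X chromosome of females, stood out in 3 libraries labelled Pvalb male (PV1-M, PV4-M and PV5-M), with up to 333 FPKM, against 479 to 644 FPKM in females and at most 6.64 FPKM in all other male libraries. Sst was at 12.3 to 30.5 FPKM in the libraries labelled Pvalb and at 0 to 49.3 FPKM in those labelled Sst, with a median of 10.1 FPKM in females and 0.862 FPKM in control males, so that directions between the labels below refer to the labels alone. The mean log2(FPKM + 1) of 12 microglial markers was between 7.08 and 9.04 in every sample, against 0.96 to 2.52 for 10 interneuron markers.

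The members lie on 8 chromosomes of the GRCm38.p6 annotation of RefSeq, and all are annotated as protein-coding. Cldn5 is at chr16:18776847-18778262, Pecam1 at chr11:106654213-106715281, Cdh5 at chr8:104101613-104144504, Tek at chr4:94739086-94874976, Slco1a4 at chr6:141805438-141856284 and Rgs5 at chr1:169655501-169695813. Flt1 (chr5:147561604-147726438), Kdr (chr5:75932827-75979072) and Abcb1a (chr5:8567091-8748575) share chromosome 5. Abcb1a overlaps Rundc3b and Gm31157, Flt1 overlaps Gm35383, Kdr overlaps Gm32727 and Cdh5 overlaps Gm29682, and whether reads were counted by strand is not given in the sources used here. Abcb1a and Slco1a4 also have close paralogs, so their values are uncertain as far as reads were divided between copies.

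RefSeq promoter sequences (250 bases before to 50 bases after the annotated start, GRCm38.p6) were matched for 7 of the 10 members. Those of 4 members are printed so that the starts of genes with like and unlike courses can be set side by side: Flt1 and Slco1a4, the pair with the closest course over the samples, Kdr, the second receptor of the growth factor that Flt1 binds, and Cldn5, whose course was the least like that of Pecam1. Capitals mark GGAA on either strand (printed as TTCC where it is on the other strand), the core that ETS factors bind. ETS factors include regulators of endothelial genes.
Cldn5: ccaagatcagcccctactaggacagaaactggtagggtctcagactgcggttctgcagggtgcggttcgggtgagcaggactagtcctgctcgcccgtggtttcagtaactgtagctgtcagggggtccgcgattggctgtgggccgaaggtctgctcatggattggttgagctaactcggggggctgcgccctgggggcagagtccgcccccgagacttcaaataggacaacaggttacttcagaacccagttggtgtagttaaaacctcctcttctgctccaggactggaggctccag
Flt1: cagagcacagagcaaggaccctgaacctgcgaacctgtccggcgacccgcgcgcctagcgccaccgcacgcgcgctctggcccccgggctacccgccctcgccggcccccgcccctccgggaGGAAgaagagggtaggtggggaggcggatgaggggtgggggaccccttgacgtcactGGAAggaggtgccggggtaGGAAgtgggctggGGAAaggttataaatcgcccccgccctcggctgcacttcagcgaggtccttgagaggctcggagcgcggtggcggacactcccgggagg
Slco1a4: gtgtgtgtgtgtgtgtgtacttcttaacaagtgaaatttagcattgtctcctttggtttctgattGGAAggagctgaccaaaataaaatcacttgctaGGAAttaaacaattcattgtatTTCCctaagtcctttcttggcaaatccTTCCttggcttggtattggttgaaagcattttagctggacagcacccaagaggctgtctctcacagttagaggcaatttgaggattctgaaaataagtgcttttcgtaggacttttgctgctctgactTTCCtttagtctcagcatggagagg
Kdr: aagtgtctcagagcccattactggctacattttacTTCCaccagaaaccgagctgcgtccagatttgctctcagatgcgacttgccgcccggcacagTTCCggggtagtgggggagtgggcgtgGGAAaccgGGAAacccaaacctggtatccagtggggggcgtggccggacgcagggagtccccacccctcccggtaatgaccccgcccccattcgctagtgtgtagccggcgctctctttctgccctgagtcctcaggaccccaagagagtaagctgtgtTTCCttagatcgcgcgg
The windows are chr16:18776597-18776896 (plus strand), chr5:147725962-147726261 (minus strand), chr6:141856171-141856470 (minus strand) and chr5:75978406-75978705 (minus strand), all written 5′ to 3′ along the gene. The core was absent from the Cldn5 window and present 4 times in Flt1, 5 times each in Slco1a4 and Kdr, 5 times in Abcb1a, 4 times in Rgs5 and 2 times in Tek. Of 27025 RefSeq promoters of the same length, 95.9% held it at least once, with a median of 3 matches. The longer form CCGGAA, which contains the core, was found in 1 member (Kdr) and in 15.2% of all promoters.

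**Figure D1:**
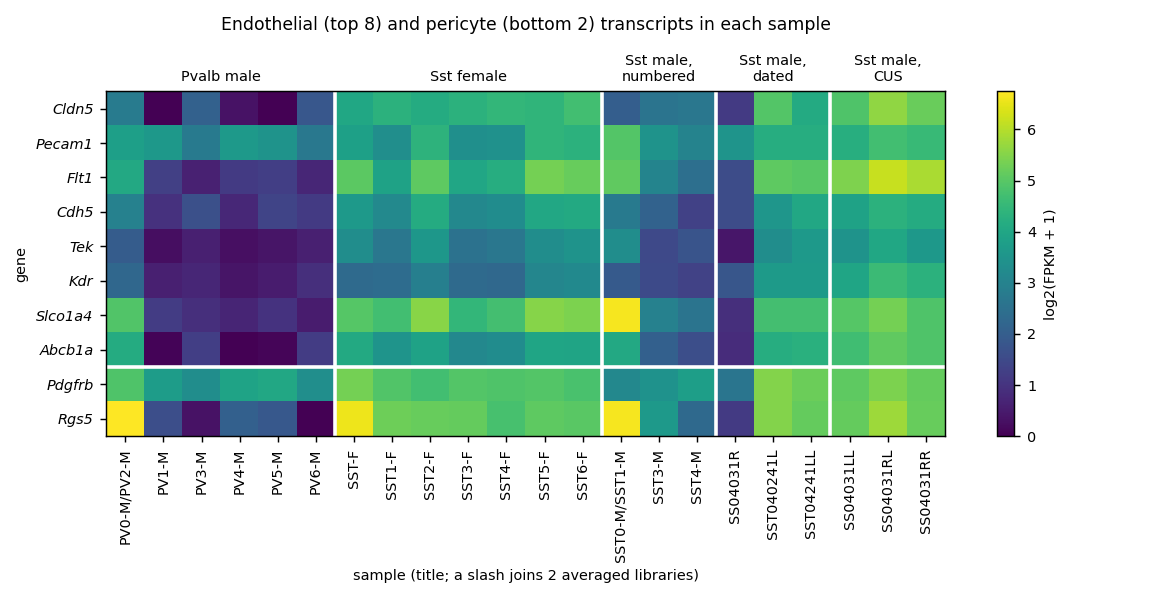
Level of each member in each of the 22 samples, as log2(FPKM + 1) by colour, with samples in columns by group and genes in rows. The columns of 5 Pvalb samples and of SS04031R are dark in most rows, and those of the CUS samples are bright in all, while Pecam1 differs least between columns.

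Over all 22 samples the members ranged from Pecam1, which varied little, to Rgs5, which was listed at 0 in 1 sample and at 106 FPKM in another. The SD of log2(FPKM + 1) was 0.62 for Pecam1, 0.86 for Pdgfrb and between 1.23 and 2.10 for the other 8, with Rgs5 the most variable. Pecam1, Flt1, Cdh5, Slco1a4 and Pdgfrb were above 0.4 FPKM in all 24 libraries. Cldn5 was listed at 0 in 2 libraries, Abcb1a in 1 and Rgs5 in 1, all of them labelled Pvalb, and such a 0 can be a failed estimate. By the mean level of the 8 endothelial members, the 3 CUS samples ranked highest of 22, and 5 of the 6 Pvalb samples ranked last, just below the dated control SS04031R.

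In the female Sst samples Rgs5 was the highest member at 41.6 ± 23.3 FPKM (mean ± SD, n = 7). Slco1a4 (33.4 ± 10.3 FPKM), Pdgfrb (29.9 ± 4.68 FPKM) and Flt1 (26.5 ± 10.7 FPKM) followed. Cldn5 (19.6 ± 3.24 FPKM), Pecam1 (14.3 ± 5.15 FPKM), Abcb1a (12.2 ± 3.28 FPKM), Cdh5 (12.1 ± 3.98 FPKM), Tek (7.78 ± 2.50 FPKM) and Kdr (5.46 ± 1.86 FPKM) were lower. Neighbours in this order differed by less than the larger of their SDs, except Cldn5 and Pecam1, and Cdh5 and Tek. In CUS samples the order was headed by Flt1 (57.4 ± 14.9 FPKM, n = 3), with Rgs5 next at 41.0 ± 10.4 FPKM.

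Among the junction and adhesion molecules, Cldn5 encodes claudin-5, the main tight junction protein of brain endothelium. Its lowest, median and highest levels were 0, 1.42 and 5.96 FPKM in the 6 Pvalb samples and 15.2, 19.1 and 25.2 FPKM in the 7 female Sst samples. The numbered male Sst controls had 3.02, 4.99 and 5.42 FPKM and the dated ones 1.20, 16.4 and 29.8 FPKM. CUS samples had 28.8, 36.1 and 48.7 FPKM. No female sample was as low as any Pvalb or numbered male sample, and 1 dated control (SST040241L) was above the lowest CUS sample.

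Cdh5 encodes VE-cadherin, the adherens junction cadherin of endothelium. It was at 0.673, 1.42 and 6.84 FPKM (lowest, median, highest) in Pvalb samples and at 7.92, 11.3 and 16.6 FPKM in female Sst samples. Numbered males had 1.46, 3.38 and 5.76 FPKM, dated males 1.94, 10.7 and 15.5 FPKM and CUS males 13.7, 16.7 and 19.1 FPKM. As for Cldn5, every female sample lay above every Pvalb and every numbered male sample.

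Pecam1 encodes the adhesion molecule CD31, which platelets and myeloid cells carry as well as endothelium. It was at 5.49, 10.6 and 13.1 FPKM in Pvalb samples and at 9.08, 13.3 and 20.1 FPKM in female Sst samples. Numbered males had 7.14, 9.98 and 29.99 FPKM, dated males 10.3, 17.3 and 17.3 FPKM and CUS males 17.8, 22.5 and 25.0 FPKM. All groups overlapped with at least 1 other, and the level stayed at 10.1 FPKM or more in the 2 samples that listed Cldn5 at 0.

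Of the receptors, Flt1 encodes VEGF receptor 1, which binds the growth factor tightly and limits its action. Flt1 was at 0.524, 1.28 and 15.8 FPKM in Pvalb samples, where PV0-M/PV2-M alone was above 1.43 FPKM. Female Sst samples had 13.9, 32.3 and 39.3 FPKM, numbered males 4.48, 7.18 and 33.5 FPKM and dated males 1.98, 30.7 and 32.5 FPKM. The CUS samples, at 42.1, 58.0 and 71.9 FPKM, lay above all 19 others.

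Kdr encodes VEGF receptor 2, the main signalling receptor for endothelial growth. Its level was 0.303, 0.579 and 3.74 FPKM in Pvalb samples and 3.81, 4.26 and 8.14 FPKM in female Sst samples, which did not overlap. Numbered males had 1.51, 1.88 and 2.76 FPKM, dated males 2.52, 11.7 and 11.9 FPKM and CUS males 14.5, 19.2 and 23.4 FPKM. As with Flt1, every CUS sample was above every other sample.

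Tek encodes TIE2, the angiopoietin receptor that keeps vessels quiescent. It was at 0.190, 0.399 and 2.88 FPKM in Pvalb samples and at 4.86, 8.82 and 10.98 FPKM in female Sst samples, again without overlap. Numbered males had 1.82, 2.37 and 8.97 FPKM, dated males 0.327, 8.96 and 11.4 FPKM and CUS males 10.0, 11.2 and 15.1 FPKM. A dated control (SST04241LL) and a female sample (SST2-F) were above the lowest CUS sample.

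Of the transporters, Slco1a4 encodes an organic anion transporter of the barrier that also carries thyroid hormone. It was at 0.430, 0.925 and 29.3 FPKM in Pvalb samples and at 21.0, 30.1 and 45.5 FPKM in female Sst samples. Numbered males had 5.01, 6.86 and 100.2 FPKM, dated males 0.880, 25.3 and 25.5 FPKM and CUS males 28.4, 30.2 and 39.1 FPKM. The averaged sample SST0-M/SST1-M held the highest level of all, at which Cldn5 was only 3.02 FPKM.

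Abcb1a encodes P-glycoprotein, the efflux pump that keeps many drugs out of the brain. It was at 0, 0.684 and 16.9 FPKM in Pvalb samples and at 7.80, 13.8 and 16.2 FPKM in female Sst samples. Numbered males had 2.06, 3.20 and 15.8 FPKM, dated males 0.822, 17.4 and 18.5 FPKM and CUS males 24.8, 28.7 and 33.3 FPKM. As for Flt1 and Kdr, its CUS samples lay above every other sample. Against the male controls alone 3.87% of all genes did so, and the share against all other samples was not computed.

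Of the pericyte members, Pdgfrb encodes the receptor PDGFRβ. Its level was 8.83, 13.2 and 28.8 FPKM in Pvalb samples and 25.0, 29.2 and 39.8 FPKM in female Sst samples. Numbered males had 7.85, 9.82 and 12.7 FPKM, dated males 5.14, 36.2 and 44.5 FPKM and CUS males 32.5, 34.3 and 41.4 FPKM. All Pvalb samples were above the lowest Sst sample, and of the 2 higher dated controls 1 lay within the range of the CUS samples and 1 above it.

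Rgs5 encodes a regulator of G protein signalling that is abundant in brain pericytes. It was at 0, 2.33 and 106 FPKM in Pvalb samples and at 26.5, 34.6 and 93.8 FPKM in female Sst samples. Numbered males had 3.91, 11.7 and 100.5 FPKM, dated males 1.21, 34.7 and 43.9 FPKM and CUS males 34.5, 35.5 and 53.0 FPKM. In each of 3 groups 1 sample (PV0-M/PV2-M, SST-F or SST0-M/SST1-M) stood far above the rest of its group and above all CUS samples.

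**Figure D2:**
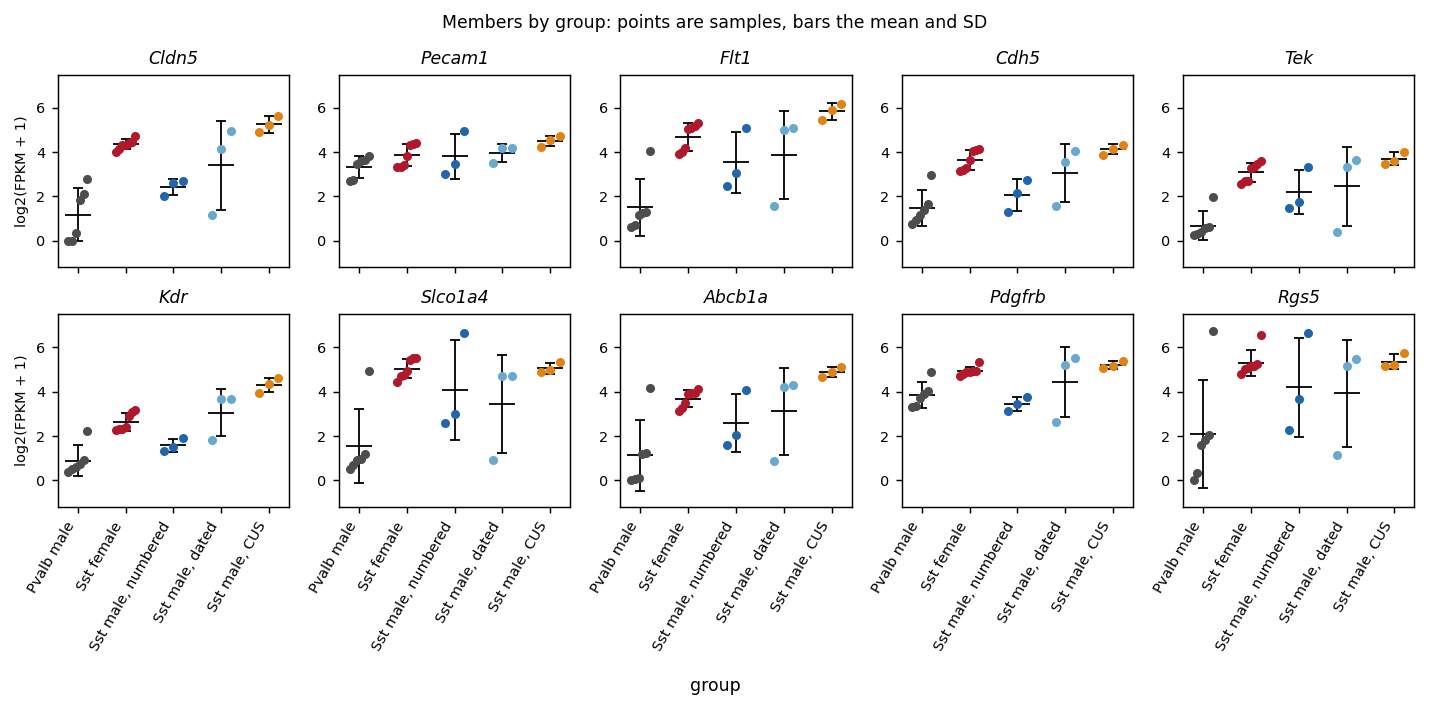
Levels of the 10 members as log2(FPKM + 1) in 5 groups (Pvalb male n = 6, Sst female n = 7, Sst male numbered n = 3, Sst male dated n = 3, Sst male CUS n = 3), with points for samples and bars for the mean and SD. For Flt1, Kdr and Abcb1a the 3 CUS points lie above all others, and for most members a single Pvalb point and a single dated point lie far from the rest of their group. Of all genes, 3.87% had every CUS sample above every male control, and the share above all groups was not computed.

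The comparison of nonstressed samples labelled Sst (13) with those labelled Pvalb (6) gave the most calls among the members. Of the 10 members, 7 were higher in the Sst samples (limma on log2(FPKM + 1), Benjamini-Hochberg adjusted p below 0.05), where 3.30% of the 14524 genes tested were called higher. Slco1a4 was higher by 2.92 ± 0.71 on the log2 scale (± SE, adjusted p = 0.0181, limma), Flt1 by 2.72 ± 0.55 (adjusted p = 0.00579) and Cldn5 by 2.51 ± 0.53 (adjusted p = 0.00783). Abcb1a rose by 2.17 ± 0.57 (adjusted p = 0.0233, limma), Tek by 2.05 ± 0.41 (adjusted p = 0.00573), Cdh5 by 1.67 ± 0.42 (adjusted p = 0.0188) and Kdr by 1.60 ± 0.35 (adjusted p = 0.0095). The 3 that did not pass were Rgs5 (difference 2.63 ± 0.88, adjusted p = 0.071, limma), Pdgfrb (0.61 ± 0.38, adjusted p = 0.325) and Pecam1 (0.55 ± 0.26, adjusted p = 0.193). The median difference was 2.11 over the members and 0.00 over all genes tested. The groups overlapped for each member, in part through PV0-M/PV2-M, which was above the Sst median for Slco1a4, Abcb1a, Pdgfrb and Rgs5, and through SS04031R, which lay within the range of the other 5 Pvalb samples for all members but Flt1, Kdr and Pdgfrb.

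These calls depended on which samples stood on each side. With the female Sst samples alone 9 of 10 members were called higher, all but Pecam1 (12.9% of 14502 genes), and for 4 of them, Cldn5, Cdh5, Tek and Kdr, every female sample lay above every Pvalb sample (3.42% of genes). All Pvalb samples are labelled male, so labelled sex and subtype cannot be told apart in that fit. With the male Sst samples alone no member was called (3.41% of 14395 genes were called in either direction), although 7 had an unadjusted p below 0.05 (23.2% of genes) and all 10 differences were positive. Without the 3 Pvalb libraries high in Xist no member was called (0.0964% of 14519 genes), and 7 had an unadjusted p below 0.05 (11.9% of genes). Leaving out PV1-M, PV4-M or PV5-M singly left 4 members called in each case (Cldn5, Flt1, Tek and Kdr), where 1.13%, 0.999% and 0.992% of genes were called higher. Leaving out PV0-M/PV2-M left 8 called (6.80% of genes). Without both PV0-M/PV2-M and SS04031R the number was 9 (8.57% of genes), with differences of 3.89 for Slco1a4, 3.85 for Rgs5 and 3.45 for Flt1.

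Other vascular genes were read from lists chosen for their role, which do not contain the members. In the Sst against Pvalb comparison, where 3.30% of all genes were higher and 4.50% lower, 19 of 30 genes of endothelial identity were higher and 0 lower (median difference 1.41), with Ly6a, a surface antigen of mouse brain endothelium, at 3.79, Ly6c1 at 2.93 and Gpr116 at 2.82. Of 32 genes of the barrier, its junctions and transporters, 7 were higher and 0 lower (median 0.53), led by Itm2a (3.03), the phospholipid transfer protein Pltp (2.90) and the carbonic anhydrase Car4 (2.48). Of 22 mural genes tested 5 were higher and 0 lower (median 1.20), among them the contractile genes Myl9 (2.41) and Cald1 (2.37) and the pericyte potassium channel subunit Kcnj8 (2.09). Of 26 ligands and coreceptors 3 were higher and 0 lower (median 0.26), namely the VEGF receptor 3 gene Flt4 (1.07), the ligand Figf (1.06) and the BMP receptor Acvrl1 (1.03). The list counts depended on the samples. With single samples left out, 10 to 22 endothelial identity and 1 to 14 mural genes were called (389 to 2130 of all genes). Other alternatives gave 0 to 26 and 0 to 18 (14 to 3638 of all genes). Of the 19 fits with a sample left out, Cald1 lost its call in 13, Acvrl1 in 10 and Kcnj8 and Figf in 9 each. Ly6c1 lost it in 5 and Car4, Pltp and Flt4 in 3 each, while Ly6a, Gpr116, Itm2a and Myl9 kept it in all.

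Markers of several other cells also differed between the Sst and Pvalb samples, some of them in the direction opposite to the members. Of 12 microglial markers all 12 were lower in the Sst than in the Pvalb samples, 1 of them, C1qc, past the threshold (by limma, difference -1.09), and their summed level was 7410 to 8510 FPKM in Pvalb samples and 3427 to 8204 FPKM in male and 3230 to 6165 FPKM in female Sst controls. All 6 excitatory neuron markers were lower, 3 past the threshold, and their summed level was 519 FPKM at the median in Pvalb and 58.2 FPKM in Sst samples. Among the Pvalb samples PV0-M/PV2-M, with the highest vascular levels, was lowest for both lists, at 7410 and 28.9 FPKM. Among the other lists Slc1a3 of 9 astrocyte genes (0.69) and Lum of 7 fibroblast genes (0.79) were higher in Sst samples. Of 8 oligodendrocyte genes Mal was higher (1.20) and Mbp lower (-1.08), and of 10 interneuron genes Sst (-2.05), Pvalb (-1.42) and Nxph1 (-1.03) were lower. None of 8 border macrophage and 6 red blood cell genes passed. At an unadjusted p below 0.05 (limma) there were 1 and 2 of them, where 3643 of all 14524 genes reached that level. With single samples left out, Sst lost its call in 14 of 19 fits and Slc1a3 and Mal in 13 each. Mbp lost it in 5, Nxph1 in 4, Lum in 3 and C1qc in 2, while Pvalb kept it in all. The part of these markers in the difference was not tested.

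The comparison of the sexes asked whether nonstressed female (7) and male (6) samples labelled Sst differed. No member was called by limma, where 6.28% of the 14498 genes tested were higher in females, and 3 members had an unadjusted p below 0.05, as 30.6% of genes did. These were Cldn5, with a difference (female minus male) of 1.43 ± 0.47 (adjusted p = 0.0575, limma), Cdh5 with 1.09 ± 0.41 (adjusted p = 0.0858) and Pdgfrb with 0.99 ± 0.39 (adjusted p = 0.107). The other differences were between 0.32 (Kdr) and 1.29 (Slco1a4), apart from Pecam1 at -0.03, whose sign turned under quantile normalization and under a scaling without small RNA genes. The median was 0.98 over the members and 0.07 over all genes. Over all genes 910 were higher and 789 lower in females, and after the scaling without small RNA genes 1678 and 448, with a median over all genes of 0.22.

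The male samples were of both kinds of title, and the result differed between them. Against the 3 numbered males, Cldn5 (1.92 ± 0.20, adjusted p = 0.00068, limma), Cdh5 (1.59 ± 0.34, adjusted p = 0.0345) and Pdgfrb (1.48 ± 0.18, adjusted p = 0.00267) were higher in females, 3 of 10 members against 1.75% of 14443 genes. For these 3 and Kdr every female was above every numbered male (5.26% of genes). Against the 3 dated males no member passed by limma although 41.5% of 14532 genes did, 1 member (Slco1a4) was higher at an unadjusted p below 0.05, as 27.3% of genes were, and Kdr was at -0.41 ± 0.39. Leaving out a single male sample also moved the calls among all 6, to Cldn5 and Pdgfrb without SST040241L (4.09% of genes higher), to Cldn5 and Cdh5 without SST04241LL (3.54%) and to Slco1a4 without SST0-M/SST1-M (13.1%). The dated control SS04031R was the lowest male control for 7 of the 10 members, and without it no member was called (367 of 14517 genes higher).

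The wider vascular lists had calls in both directions between the sexes, where 6.28% of all genes were higher and 5.44% lower in females. Of the 30 endothelial identity genes 6 were higher in females, led by Ly6a (2.07), the transcription factor Sox18 (1.97) and the sialomucin Emcn (1.68), and 3 were lower, namely Ecscr (-0.93), Cd34 (-0.87) and the ETS factor Fli1 (-0.71), with a median of 0.84. Of the barrier genes 4 of 32 were higher and 0 lower (median 0.60), with Slc22a8 at 1.82, Pltp at 1.68 and Slc38a3 at 0.93. Of the mural genes 2 of 22 were higher, the transcription factors Heyl (1.37) and Tbx18 (0.87), a share near that over all genes, and 0 lower (median 0.83). Among the 26 listed ligands and coreceptors 1, Angpt2, the angiopoietin that opposes TIE2 signalling in many settings, was higher (1.16) in females. In the same list 1, Tgfbr2, was lower (-0.81), and neither share exceeds that over all genes. Of 12 microglial markers 11 were lower in females, 3 past the threshold, Cx3cr1 (-1.40), Siglech (-1.04) and Csf1r (-0.86). Of the other lists Stab1 of 8 border macrophage genes (-0.88) was lower and Sst of the interneuron genes (2.38) higher in females. The part of microglial RNA in these differences was not tested. With single samples left out, 3 to 15 endothelial identity and 1 to 6 mural genes were called in either direction (667 to 3552 of all genes). In those 13 fits Stab1 lost its call in 11, Fli1, Slc38a3 and Tgfbr2 in 10 each and Ly6a in 9. Tbx18 lost it in 8, Csf1r in 7, Pltp in 5, Emcn and Siglech in 3 each and Cd34 in 1. The calls of Sox18, Ecscr, Slc22a8, Heyl, Angpt2, Cx3cr1 and Sst held in all of them.

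**Figure D3:**
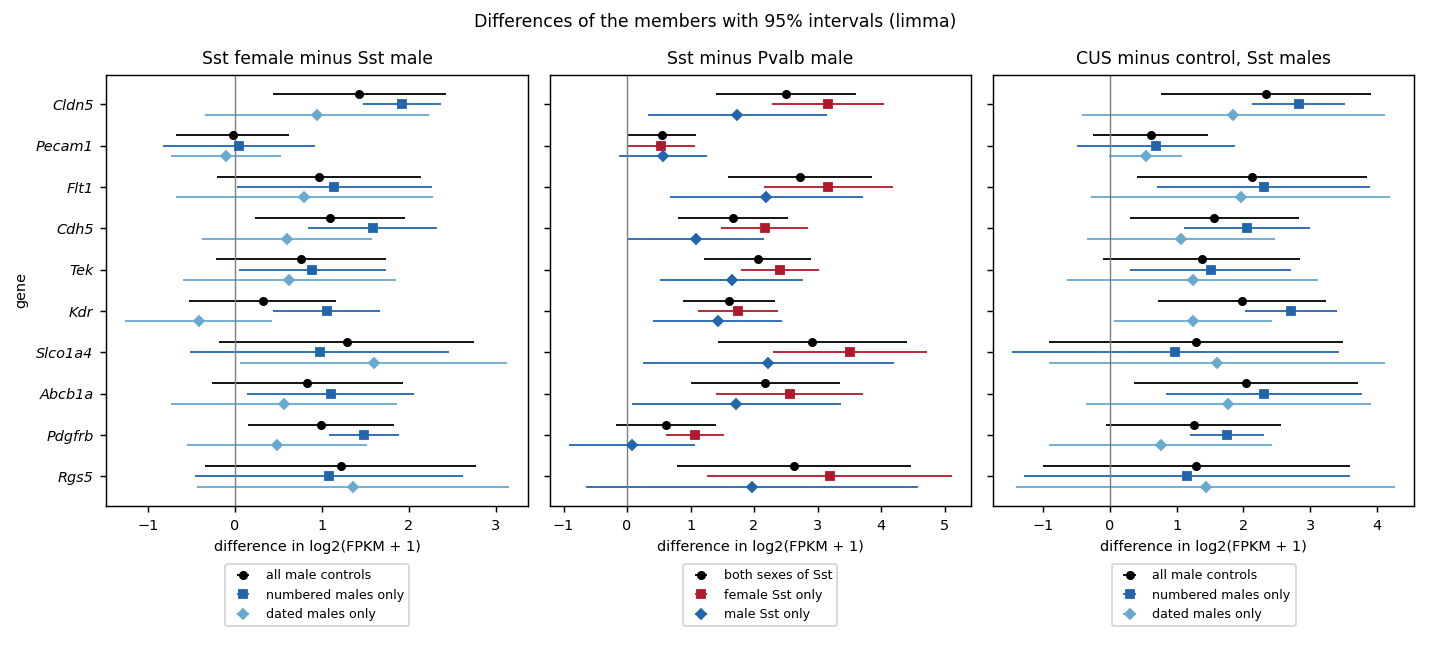
Differences of the 10 members in log2(FPKM + 1) with 95% intervals from limma, for females against males, Sst against Pvalb and CUS against control, each with all samples and with parts of them. Between female Sst and Pvalb samples all 10 intervals lie above 0, while against dated males only that of Slco1a4 does for the sexes and only that of Kdr for CUS.

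The comparison of CUS (3) with nonstressed Sst males (6) asked whether stress altered the transcriptome of these cells. All 10 members were higher on average in CUS samples and none was called by limma, where 1 of 14319 genes passed (0.00698%), Slc1a2, which was listed at 0 in all 6 controls and is named here after its values were seen. Of the members 5 had an unadjusted p below 0.05, against 7.47% of genes. These were Cldn5 (2.34 ± 0.71), Flt1 (2.13 ± 0.78), Abcb1a (2.04 ± 0.76), Kdr (1.98 ± 0.57) and Cdh5 (1.56 ± 0.57), each with an adjusted p of 0.641 (limma). Tek (1.37 ± 0.67), Rgs5 (1.30 ± 1.04), Slco1a4 (1.29 ± 1.00), Pdgfrb (1.26 ± 0.59) and Pecam1 (0.61 ± 0.39) did not reach that level. The median difference was 1.47 over the members and 0.02 over all genes. For 3 members, Flt1, Kdr and Abcb1a, the 3 CUS samples lay above all 6 controls, as they did for 3.87% of all genes.

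All CUS libraries have dated titles, so the controls were also taken by title. Against the 3 dated controls no member was called by limma and 1, Kdr (1.24 ± 0.50), had an unadjusted p below 0.05 (6.74% of genes). In that comparison CUS samples did not overlap controls for 5 members, Pecam1, Flt1, Kdr, Slco1a4 and Abcb1a, against 9.33% of genes. SS04031R was the lowest dated control for each member, and it is also the only control whose title has the number that all 3 CUS titles share. Without it no member was called by limma and 4 had an unadjusted p below 0.05 (10.4% of genes), namely Flt1 (0.81 ± 0.20), Abcb1a (0.65 ± 0.13), Kdr (0.62 ± 0.18) and Slco1a4 (0.33 ± 0.14). Cldn5 was at 0.72 ± 0.31 and Pdgfrb at -0.16 ± 0.13, and the median over the members was 0.33. Stress and title number cannot be told apart in that comparison. Against the 3 numbered controls 5 members were higher (8.45% of 14326 genes), Cldn5 (2.83 ± 0.29, adjusted p = 0.00463, limma), Kdr (2.71 ± 0.29, adjusted p = 0.00463), Abcb1a (2.31 ± 0.62, adjusted p = 0.0495), Cdh5 (2.06 ± 0.40, adjusted p = 0.0201) and Pdgfrb (1.75 ± 0.23, adjusted p = 0.00745). In that comparison title and stress cannot be told apart.

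None of the other vascular genes on the 4 lists passed in the CUS comparison by limma, where 7.47% of all genes had an unadjusted p below 0.05. The lists had a median of 1.19 for endothelial identity (12 of 30 at an unadjusted p below 0.05), 0.65 for the barrier (10 of 32), 1.02 for mural genes (1 of 22) and 0.36 for ligands and coreceptors (6 of 26). Markers of some other cells differed at the same time. The summed levels of astrocyte, interneuron, excitatory neuron, border macrophage and fibroblast genes overlapped between CUS samples and male controls. The summed level of 6 red blood cell genes was 507 to 637 FPKM in CUS samples and 12.4 to 296 FPKM in male controls, and that of 8 oligodendrocyte genes was 1818 to 2255 FPKM against 451 to 1712 FPKM. The summed microglial level was 2734 to 3161 FPKM in CUS samples and 3427 to 8204 FPKM in male controls, again without overlap. Whether these differences bear on the vascular members was not tested.

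Between the 3 dated and the 3 numbered male controls no member passed by limma (4.11% of 14230 genes did), and 1 member, Kdr, which was higher in the dated samples by 1.47 ± 0.56 (adjusted p = 0.171, limma), had an unadjusted p below 0.05 (23.6% of genes). Of the other members 7 were higher in the dated samples, and Slco1a4 (-0.62 ± 1.38) and Rgs5 (-0.28 ± 1.47) were lower, each with an error larger than the difference. The error also exceeded the difference for Pecam1 (0.15 ± 0.51), Flt1 (0.34 ± 1.05), Tek (0.27 ± 0.91) and Abcb1a (0.53 ± 1.02), which were higher. Of the 32 listed barrier genes 1, the junction molecule Jam2 (-1.38), was lower in dated samples. Of the 26 listed ligands and coreceptors 1, the BMP receptor Bmpr2 (-1.29), was lower. Both shares are near that over all genes, and each call was lost in 5 of the 6 fits with a single sample left out. The endothelial identity and mural lists had no call by limma (1 of 30 and 0 of 22 at an unadjusted p below 0.05), with medians of -0.02 and 0.60.

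The members did not all follow the same course over samples. After removal of group means, Pearson's r over the 22 samples was between 0.86 and 0.96 for all pairs among Flt1, Cdh5, Tek, Kdr, Slco1a4 and Abcb1a, with Flt1 and Slco1a4 the closest pair (0.96). For Cldn5 it was 0.02 with Pecam1 and at most 0.78 (with Kdr), and for Pdgfrb it was 0.71 with Rgs5. These values describe samples that share libraries, scaling and differing depth. In SST0-M/SST1-M Pecam1, Slco1a4 and Rgs5 were high while Cldn5, Kdr and Pdgfrb were low, which the other samples with high Flt1 did not show. Its libraries also had the fewest genes above 0.4 FPKM, and the part of that in these levels was not tested.

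Pecam1 was compared with Cdh5, its partner at endothelial junctions. Its level was 1.11 to 1.61 times that of Cdh5 in all female and CUS libraries and in the 2 higher dated controls. The ratio was 1.91 in both PV0-M and PV2-M, 2.64 to 16.9 in the other Pvalb libraries, 5.29 in SS04031R and 2.95 to 5.23 in the numbered males. The summed level of the 12 microglial markers was 7410 to 8510 FPKM in the Pvalb samples, 7548 FPKM in SS04031R and 5131 to 8204 FPKM in the numbered males, against 2734 to 6165 FPKM in the libraries with a ratio up to 1.61. The part of microglial RNA in the Pecam1 level was not tested.

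**Figure D4:**
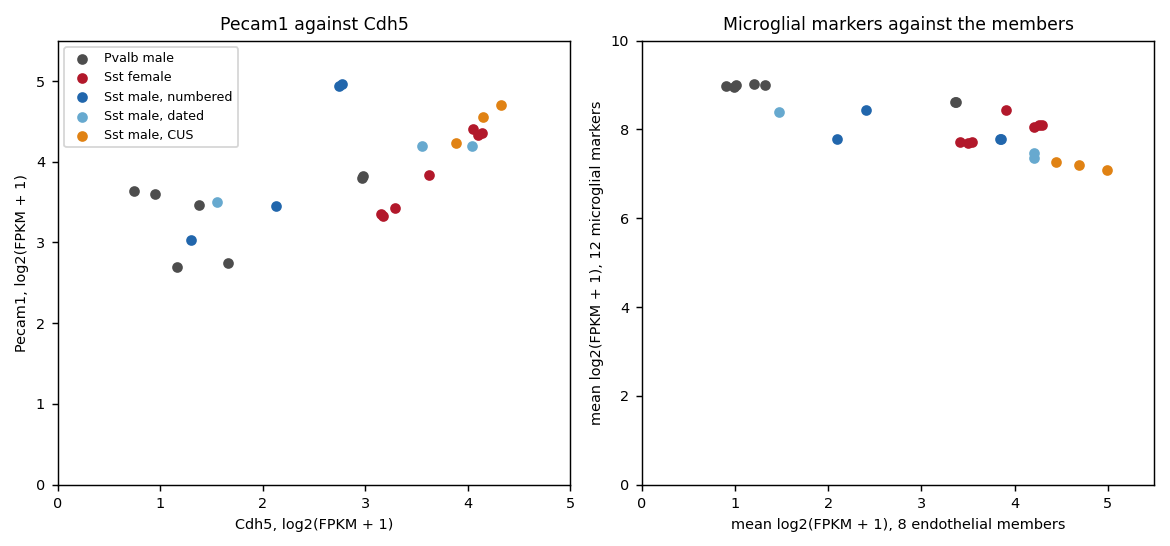
Left, Pecam1 against Cdh5 in the 24 libraries, both as log2(FPKM + 1); right, the mean log2(FPKM + 1) of 12 microglial markers against that of the 8 endothelial members, with libraries coloured by group. Pecam1 stays above 2.6 where Cdh5 is near 1, and the 5 Pvalb libraries lowest in the members lie at the top of the right panel.

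The genes whose course was most like the mean of the 8 endothelial members, by r over the 22 samples after removal of group means and among 13256 genes, were Fn1 (0.99), which encodes fibronectin, the endothelial phosphatase Ptprb (0.99), the adhesion receptors Eltd1 (0.98) and Gpr116 (0.97), and the matrix gene Hmcn1 (0.97). Flt1 ranked sixth and Abcb1a eighth in that order, although both contribute to the mean, and Cldn5 ranked 541 and Pecam1 771. Closest to Pdgfrb were Atp13a5 and Vtn, both on the mural list (0.94 each), Egflam and Ece1 (0.93 each) and Dock6 (0.91). Closest to Rgs5 were the endothelin receptor Ednra (0.98), the aminopeptidase Anpep (0.98), Igfbp7, Ackr3 and Itga1 (0.97 each). Closest to Cldn5 were Cml5, Akap2 and Sema6a (0.93 each), Il34 (0.91) and Ermn (0.90), none of them on a vascular list. The samples far from their group means, PV0-M/PV2-M and SS04031R, weigh heavily in these rankings too.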

How the data were processed

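RNA of FACS-sorted interneurons was sequenced, and the deposited table of FPKM, made by the authors with 1 column for each of 24 libraries, was used as it is. The submitters' processing notes name TopHat2, Cufflinks, Cuffdiff and mm10, and the study's methods name HISAT2 and StringTie as well as a second mouse build, so which of them made the table is not settled. ComBat is named, and whether it was applied to these values is not stated. Of 30 labelled libraries, 6 were not analysed here. Reads per library are not given with the table, so no counting interval was computed, and relative depth estimated from the lowest values was between 0.46 and 2.5 times that of SST2-F.

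Values were taken as log2(FPKM + 1) for genes with a mean above 0.4 FPKM in a comparison and tested with limma 3.58.1 (R 4.3.3, lmFit and eBayes with trend and robust, 2-sided, Benjamini-Hochberg, threshold 0.05) on the samples of the groups compared, after near-identical libraries were averaged. Fold changes on this scale understate those of low genes. The fit was tested on simulated data. Tables and plots were made with Python 3.11.15, numpy 2.4.6, pandas 2.3.3 and matplotlib 3.10.9. Sequences and positions are those of RefSeq GRCm38.p6, in which 22499 of 23993 symbols were matched. The members and the gene lists (endothelial identity, barrier, mural, ligands and coreceptors, and markers of other cells) were chosen with earlier results of these data known. Named genes are all members and, of each list, up to 3 called genes in each direction with the largest differences, and genes of like course are the 5 with the highest r. The result of 1 gene that this rule names is not reported here. Alternatives were other pseudocounts (0.1 and 5), filters (none, 1 FPKM) and scalings, unaveraged libraries, limma without trend and robust, parts of the groups, the title number as a block, and each sample left out. Left out because seen to stand apart, and so chosen after seeing the data, were the libraries high in Xist, PV0-M/PV2-M and SS04031R.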

Additional observations from a re-analysis of the deposited data

Results flagged for a closer look

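Dixon's test at the 95% level was applied to 30 sets of values, in groups of 6 or 7 samples. In 8 of them 1 sample lay farther from its neighbour than the test allows. All 8 came from PV0-M/PV2-M or SST-F. The members are correlated and the sets share samples, so the 8 are not separate excesses over the 1 in 20 sets that chance gives. The averaged sample PV0-M/PV2-M was apart from the other 5 Pvalb samples with 15.8 FPKM of Flt1, 2.88 FPKM of Tek, 3.74 FPKM of Kdr, 29.3 FPKM of Slco1a4, 16.9 FPKM of Abcb1a and 106 FPKM of Rgs5. SST-F was apart from the other 6 female samples with 39.8 FPKM of Pdgfrb and 93.8 FPKM of Rgs5. Among its endothelial members Cldn5 was the lowest of the group and Abcb1a the highest.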

How the results depend on the processing

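The number of members called between the sexes was 0 and became 1 with a common total without small RNA genes (11.7% of all genes higher), 1 with libraries not averaged (8.33%), 3 with numbered males and 0 to 2 with single samples left out. Between Sst and Pvalb samples it was 7 and became 0 with male Sst samples alone, 0 without the 3 Pvalb libraries high in Xist and 4 to 8 with single samples left out. Under CUS it was 0 and became 5 with numbered controls. Among differences of single members, 240 of 260 alternatives for the sexes, 317 of 350 for Sst against Pvalb and 214 of 220 for CUS kept direction and side of the threshold. These counts repeat correlated members over overlapping sets of samples and are not separate checks. For the sexes and CUS no member passed at the start, and 1 to 3 of all genes passed under CUS with single samples left out. Staying below the threshold therefore says little there. Pecam1 between the sexes turned to 0.0181 (quantile), 0.16 (common total) and 0.0495 (numbered males), with -0.20 to 0.19 over samples left out. Kdr between the sexes was -0.41 with dated males, and Pdgfrb under CUS was -0.16 with dated controls without SS04031R. Between dated and numbered males, unaveraged libraries gave -0.14 for Pecam1, -0.0491 for Flt1 and -0.0168 for Tek, and quantile normalization 0.11 for Rgs5. Leaving out single samples there gave -0.24 to 0.72 for Pecam1, -0.25 to 1.495 for Flt1, -0.33 to 1.29 for Tek, -1.37 to 0.67 for Slco1a4, -0.0502 to 1.66 for Abcb1a and -1.23 to 1.11 for Rgs5. The common total moved the median of all genes from 0.07 to 0.22 for the sexes and from 0.02 to 0.12 for CUS. The causes were not tested.

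Title numbers are shared by some samples. With the title number as a replicate block 0 members were called between the sexes, where 11 of 14286 genes passed in either direction. Without it in the same samples 0 were called (24 of 14286 genes), so these fits could hardly call a member. Between Sst and Pvalb samples the block gave 8 (3.90% of all genes higher), against 7 without it in the same samples (5.34%). Deviations of equally numbered samples correlated between -0.0495 and 0.123. Only SST4-F with SST4-M, and SST3-F and SST3-M with PV3-M, correlated best with their own number. The numbers were therefore not taken as pairs. With no read counts, levels near 0 have no interval.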

Other observations

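The ratio of Flt1 to Kdr was 2.90 to 3.07 in the CUS libraries and 3.26 to 8.06 in the female libraries. It was 12.01 in SST0-M and 12.2 in SST1-M, and 0.719 to 0.813 in PV6-M, SS04031R and PV3-M. The ratio of Pdgfrb to Rgs5 was 0.424 to 1.08 in female and 0.781 to 0.967 in CUS libraries. It was 0.0777 in SST0-M, 0.271 in PV0-M and 35.5 in PV3-M, while PV6-M listed Rgs5 at 0.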
